A study of Caenorhabditis elegans with 2 samples.

Results

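The weaker LIR-3 regions are 1628 stretches of the worm genome that stood just below the authors' threshold for a reproducible peak of the tagged protein. They were chosen on measured values. The 29984 nuclear regions of the authors' pooled list were ranked by score, and a region was kept if it was among the first 4000 ranks, shared no base with a peak that had passed the threshold, and had its summit inside a region of both replicates' own lists. Genes, annotation and base sequence were not used in that choice, while position entered it only through the overlap with peaks and with the replicates' regions. The share of weaker regions near gene starts, and the share with the short sequence CTGCGTCT, lay between those of the peaks above the threshold and of the regions ranked below. The sequence GAGAGAGA was in a larger share of weaker regions than of the regions ranked below. Its intervals for weaker regions and peaks overlapped, but not when replicate 2 was left out.

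The binding of LIR-3 was mapped by ChIP-seq (chromatin immunoprecipitation followed by sequencing) in whole Caenorhabditis elegans hermaphrodites at the L1 larval stage. The worms, strain OP312 with the genotype unc-119(ed3) III; wgIs312, were synchronized as starved L1 larvae after bleaching and collected 6 h later. They express LIR-3 with a GFP-FLAG tag at its C-terminus from a transgene, and an anti-GFP antibody was used on sonicated chromatin. The samples form 1 group of 2 biological replicates. A control experiment named in the labels was not analysed here, so groups could not be compared and no test was made. Shares are given with exact Clopper-Pearson 95% intervals over regions or genes, which cover counting error only, and regions and genes are not replicates. Read depth is unknown, because the files hold regions and no read counts. Because whole larvae were used, weak signal in all cells and strong signal in few cells cannot be told apart.

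LIR-3 belongs to the family named after LIN-26, a zinc finger protein known for its part in epidermal development in C. elegans, and its own targets in larvae are less well known. The irreproducible discovery rate (IDR) compares the ranks of peaks between replicates and keeps those whose ranks agree, and regions below it may be weak binding or background, which a list of regions alone does not separate. Many transcription factors in worms collect just upstream of gene starts, and highly accessible promoters often give signal for many unrelated factors.

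The IDR threshold acted as a plain cut in the pooled score. The 1894 nuclear IDR peaks were exactly the first 1894 ranks of the pooled list. Of the 4000 ranks considered, 1922 shared a base with an IDR peak, and 28 of those were separate regions beside one. Of the remaining 2078 regions, 177 had a region in replicate 1 only, 267 in replicate 2 only and 6 in neither, which left 1628 at ranks 1895 to 4000. Scores, which are the authors' signal value with no unit given, ran from 58.9 to 89.9 with a median of 69.0. The weakest IDR peak, in an intron on IV, scored 89.94 and the strongest weaker region, upstream of ttr-6 on X, scored 89.93. At the other end, the region at rank 4000, beside the non-coding RNA gene ZC477.19, scored 58.917, and the region at rank 4001, upstream of cth-2, scored 58.914. Neither edge is a step in the score. The −log10 q-values that the authors give for the regions ran from 0.566 to 1.74, and 302 of the 1628 had a q-value of 0.05 or less.

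Stretches around the summits of 8 weaker regions and of an IDR peak near the threshold are printed to show the 3 short sequences whose shares are described further on, in capitals. The first is CTGCGTCT, the 8 bases with the highest ratio of weaker regions to flanks, the second is the GA repeat GAGAGAGA, and the third is GATAAG, which GATA factors are known to recognize. The regions are among the highest-scoring ones with the sequence within 25 bp of the summit, at least 90% unique sequence and no annotated UTR in the stretch. Sequences are from the reference genome (ce11), 5′ to 3′ on the strand that carries the capitals.
Weaker region upstream of adm-2, chrX:13687228-13687315, plus strand: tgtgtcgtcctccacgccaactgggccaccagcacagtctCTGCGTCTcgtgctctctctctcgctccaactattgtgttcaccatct
Weaker region nearest to T27D1.4, chrIII:3677552-3677639, minus strand: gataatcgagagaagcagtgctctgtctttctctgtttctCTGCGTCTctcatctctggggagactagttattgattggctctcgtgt
Weaker region upstream of cebp-1, chrX:1454643-1454730, minus strand: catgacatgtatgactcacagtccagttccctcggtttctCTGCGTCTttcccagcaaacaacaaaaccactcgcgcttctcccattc
Weaker region upstream of ZK688.7, chrIII:7911763-7911850, plus strand: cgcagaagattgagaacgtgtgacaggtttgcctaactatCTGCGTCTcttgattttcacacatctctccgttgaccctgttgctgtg
IDR peak nearest to unc-103, chrIII:4113809-4113896, plus strand: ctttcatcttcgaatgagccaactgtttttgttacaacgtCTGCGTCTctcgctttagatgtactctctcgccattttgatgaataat
Weaker region upstream of C07D8.6, chrX:7341049-7341136, minus strand: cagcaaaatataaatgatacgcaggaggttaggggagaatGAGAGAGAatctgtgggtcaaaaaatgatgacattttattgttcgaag
Weaker region near F55A8.6, chrIV:1901145-1901232, minus strand: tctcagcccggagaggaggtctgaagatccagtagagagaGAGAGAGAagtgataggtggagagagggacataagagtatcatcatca
Weaker region upstream of cdd-1, chrX:8211183-8211268, plus strand: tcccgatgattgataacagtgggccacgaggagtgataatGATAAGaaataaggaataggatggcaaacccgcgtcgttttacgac
Weaker region nearest to F31F7.1, chrV:6275500-6275585, plus strand: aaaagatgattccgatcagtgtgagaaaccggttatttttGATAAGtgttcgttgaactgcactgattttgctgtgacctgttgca

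The scores behind these stretches show how unevenly the replicates contributed. The adm-2 region, 695 bp upstream of a gene for a disintegrin and metalloproteinase protein, scored 88.3 in the pooled list, 51.8 at rank 1679 of replicate 1 and 36.0 at rank 3499 of replicate 2. The cebp-1 region, 821 bp upstream of the gene for a CCAAT/enhancer-binding protein homolog, scored 86.4, with 47.7 and 59.6 in replicates 1 and 2 (ranks 1859 and 1610). The C07D8.6 region scored 88.3, with 21.6 and 47.0 (ranks 8953 and 2219). The cdd-1 region, 57 bp upstream of a cytidine deaminase gene, scored 88.3, with 26.3 and 45.8 (ranks 5508 and 2296). The cebp-1 region thus stood at similar ranks in both lists, and the C07D8.6 and cdd-1 regions stood far lower in replicate 1. The IDR peak nearest to unc-103, a potassium channel gene, had 91.2 in the pooled list and 42.8 and 39.5 in the replicates, both within the range of the weaker regions.

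Most weaker regions lay outside the first 4000 ranks of at least 1 replicate. Their rank in replicate 1 ran from 828 to 29921 with a median of 4417, and in replicate 2 from 1078 to 29833 with a median of 3859.5. Only 345 of 1628 (21.2%, exact 95% interval 19.2 to 23.3%) were among the first 4000 ranks of both replicates. Of the 1807 IDR peaks with a region in both lists the share was 93.2%, and of the 2136 regions chosen by the same rule from ranks 4001 to 8000 (the next 4000 ranks) it was 0.983%. Nearer the threshold it was 75.8% of 450 such peaks among the last 500 IDR ranks, and 42.2% of the 500 highest-scoring weaker regions. At least 1 replicate placed 329 weaker regions (20.2%) beyond rank 15000 of its list. The pooled score that chose the regions is built from both replicates, so these ranks are a description and not independent support.

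**Figure D1:**
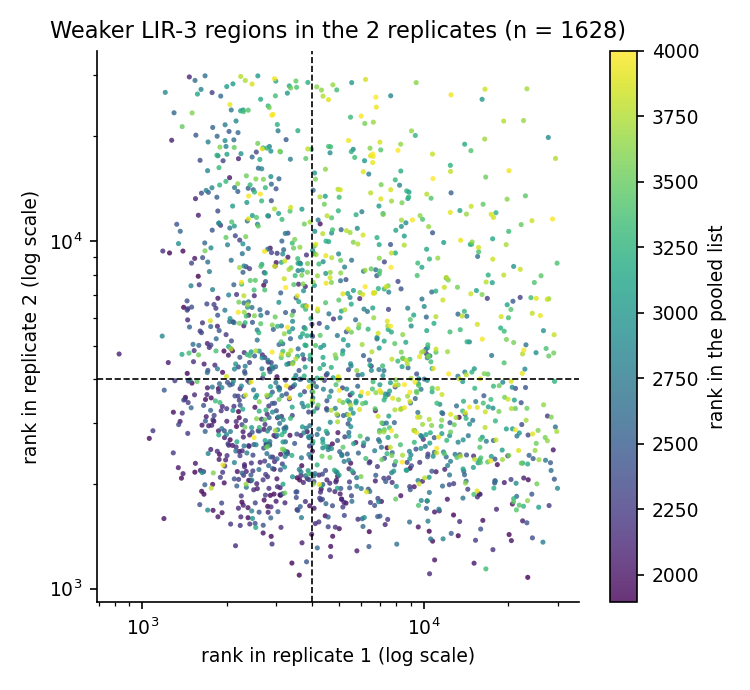
Rank of each of the 1628 weaker regions in replicate 1 and replicate 2 (log scales), coloured by rank in the pooled list; dashed lines mark rank 4000. The lower left corner holds the 345 regions within the first 4000 ranks of both, and the cloud has no diagonal.

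Within the narrow band of pooled scores, the scores of the 2 replicates did not rise together. Spearman's rho across the 1628 weaker regions was −0.14, against 0.77 across the IDR peaks and −0.23 across the next 4000 ranks. Choosing regions from a narrow band of the pooled score limits how the scores can vary together, so the value does not measure reproducibility. The position of the summit also entered the rule, since it had to lie inside a region of each replicate. The summit lay a median of 26.5 bp from that of replicate 1 and 22 bp from that of replicate 2 in the weaker regions, 13 and 11 bp in the IDR peaks, and 30 and 24 bp in the next 4000 ranks. Nearly all regions, 1627 of 1628, were 336 bp wide in the authors' lists, so the distances cover a small part of a region. The pooled list is built from both replicates, so these distances are a description and not independent support.

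Weaker regions lay near gene starts more often than the genome as a whole, and less often than IDR peaks. The annotated 5′ end of a gene, piRNA genes left out, was within 500 bp of the summit in 682 of 1628 weaker regions (41.9%, exact 95% interval 39.5 to 44.3%), and 26.3% of nuclear bases lie in such windows. The share was 68.2% of IDR peaks and 35.5% of the next 4000 ranks. Over the ranks of the weaker regions it was 50.4% at ranks 1895 to 2394 (exact 95% interval 45.5 to 55.2%), 41.6% at 2395 to 2894, 39.8% at 2895 to 3394 and 35.5% at 3395 to 4000. The last 500 ranks of the IDR peaks had 58.7%, so the share changed gradually across the threshold, without a break at rank 1894. These differences were not tested.

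Coding exons showed the reverse order. They held 178 summits of weaker regions (10.9%, exact 95% interval 9.46 to 12.6%), 1.88% of IDR summits and 19.8% of those in the next 4000 ranks, while 24.6% of nuclear bases are coding. Over the weaker regions the share was 5.88% at ranks 1895 to 2394 and 16.1% at 3395 to 4000. Sequence outside protein-coding and small RNA genes held 54% of the summits, introns 26.7%, 3′ UTRs 3.69%, 5′ UTRs 3.26% and the bodies of tRNA, snoRNA, snRNA, rRNA and miRNA genes 1.47%. In IDR peaks the share outside genes was 72.2% and in introns 18.8%. IDR summits lay within 1000 bp of 111 weaker summits (6.82%), and without these the share of weaker summits near 5′ ends was 42.4%.

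**Figure D2:**
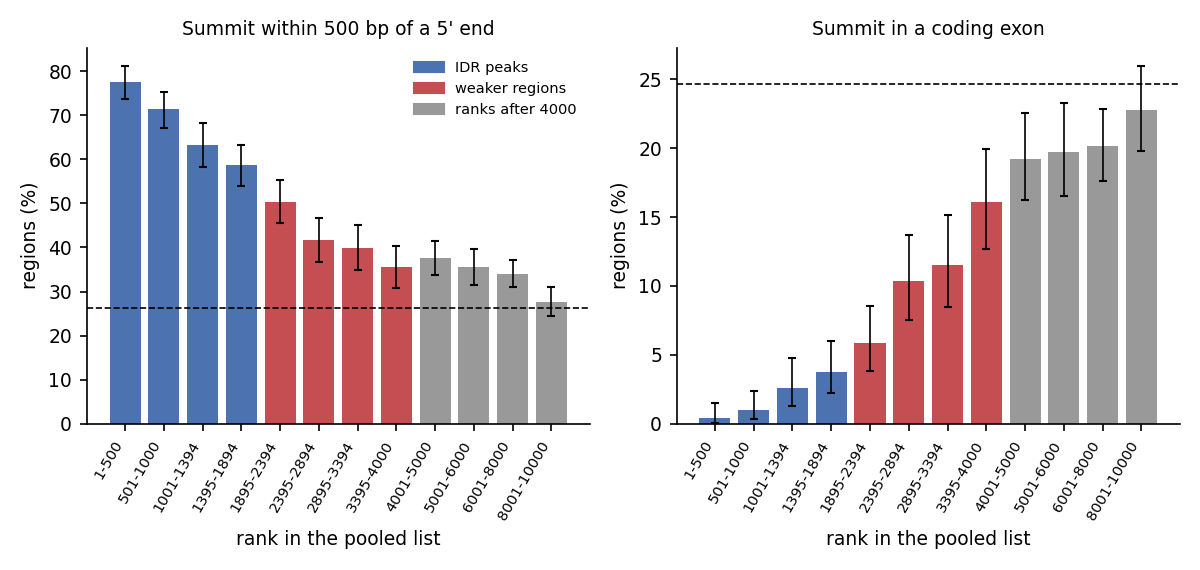
Percent of regions whose summit lay within 500 bp of a 5′ end (left) and in a coding exon (right) by rank in the pooled list, with exact 95% intervals; dashed lines give the share of nuclear bases. The share near 5′ ends is lower and the share in coding exons higher with each step down the 4 bins of weaker regions.

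At protein-coding genes the weaker summits sat upstream of the start. Among the 557 protein-coding genes with a weaker region within 500 bp, the strongest such summit lay at a median of −166 bp from the 5′ end (negative values are upstream; quartiles −284 and −35 bp), and 79.2% were upstream. In IDR peaks the median was −189 bp with 92.6% upstream of 1183 genes, and in the next 4000 ranks −98 bp with 62.4% upstream of 580. Upstream bins of 50 bp between −250 and −100 bp each held 10.2 to 10.8% of the genes with a weaker region, and no bin beyond 50 bp downstream held more than 2.87%. The annotated 5′ end of a gene in C. elegans is often the site where a leader is spliced on, so distances to the true start of transcription were not measured.

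**Figure D3:**
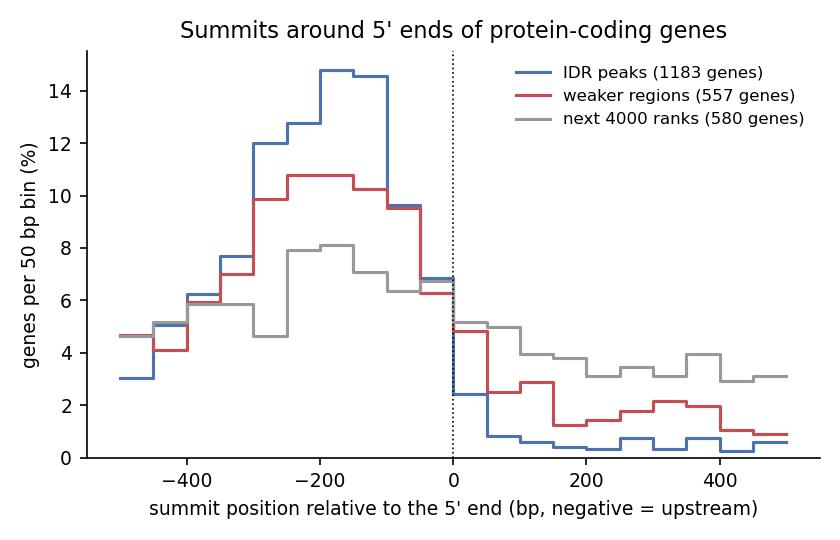
Position of the strongest summit within 500 bp of the 5′ end of protein-coding genes, as percent of genes per 50 bp bin, for IDR peaks (1183 genes), weaker regions (557) and the next 4000 ranks (580). Weaker and IDR summits are both densest between −250 and −100 bp, and more of the weaker ones lie downstream of the 5′ end.

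The sequence CTGCGTCT, read on both strands, was found within 100 bp of the summit in 96 weaker regions (5.90%, exact 95% interval 4.80 to 7.15%). It was in 0.623% of windows of the same 201 bp centred 500 bp to each side, in 12.9% of IDR peaks and 2.72% of the next 4000 ranks, and in 1.06% of all such windows of the nuclear genome. Over the weaker regions its share was 8.94% at ranks 1895 to 2394 and 3.55% at 3395 to 4000. Of the 8-base sequences held by more than 5% of the weaker regions, 137 in all, it had the highest ratio to the flanks (9.46), followed by GAGAGAGA (7.32) and the overlapping CTCTCTCA (6.67). Since these 8-base sequences were picked out by that ratio, it describes them and supports nothing. In 35 of the 96 regions (36.5%) it lay within 25 bp of the summit.

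GAGAGAGA, which is TCTCTCTC on the other strand, was in 156 weaker regions (9.58%, exact 95% interval 8.20 to 11.1%), 11.3% of IDR peaks, 3.42% of the next 4000 ranks, 1.31% of flanks and 1.32% of genome windows. The intervals of weaker regions and IDR peaks (9.87 to 12.8%) overlap. Without replicate 2 the share was 7.90% (6.80 to 9.11%), with an interval below that of IDR peaks, and without replicate 1 it was 9.82%. In the pooled list the share did not fall steadily with rank, at 8.28% of ranks 1 to 500, 12.9% of ranks 1395 to 1894 and 12.9% of ranks 1895 to 2394. It was in 9.83% of weaker regions farther than 500 bp from a 5′ end (exact 95% interval 8.01 to 11.9%) and in 9.24% of those within 500 bp (7.17 to 11.7%). In IDR peaks it was in 17.9% of the distant ones (14.9 to 21.3%) and 8.20% of those within 500 bp (6.73 to 9.87%), so the higher share in IDR peaks was seen only away from 5′ ends. Either sequence was in 240 weaker regions (14.7%) and both were in 12. In windows of 200 bp upstream of protein-coding genes, CTGCGTCT was in 2.78% and GAGAGAGA in 2.73%. A match is a description of the letters, and whether LIR-3 contacts them was not measured.

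GATAAG had the opposite profile. It was in 207 weaker regions (12.7%, exact 95% interval 11.1 to 14.4%) and 7.30% of IDR peaks (6.15 to 8.60%), and in 11.8% of the next 4000 ranks. The flanks of weaker regions held it in 8.66% of windows, the genome in 7.33% and the sequence upstream of protein-coding genes in 12.6%. The E-box CACGTG followed the score instead, with 5.96% of weaker regions, 10.1% of IDR peaks, 4.54% of the next 4000 ranks and 2.90% of flanks. Base composition moved with these shares, with GC at 37.4% in weaker regions, 42.1% in IDR peaks, 35.5% in the next 4000 ranks and 34.7% in the flanks, and its part in the motif shares was not tested. Without replicate 2 the GATAAG share was 11%, and without replicate 1 that of CTGCGTCT was 7.67%.

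**Figure D4:**
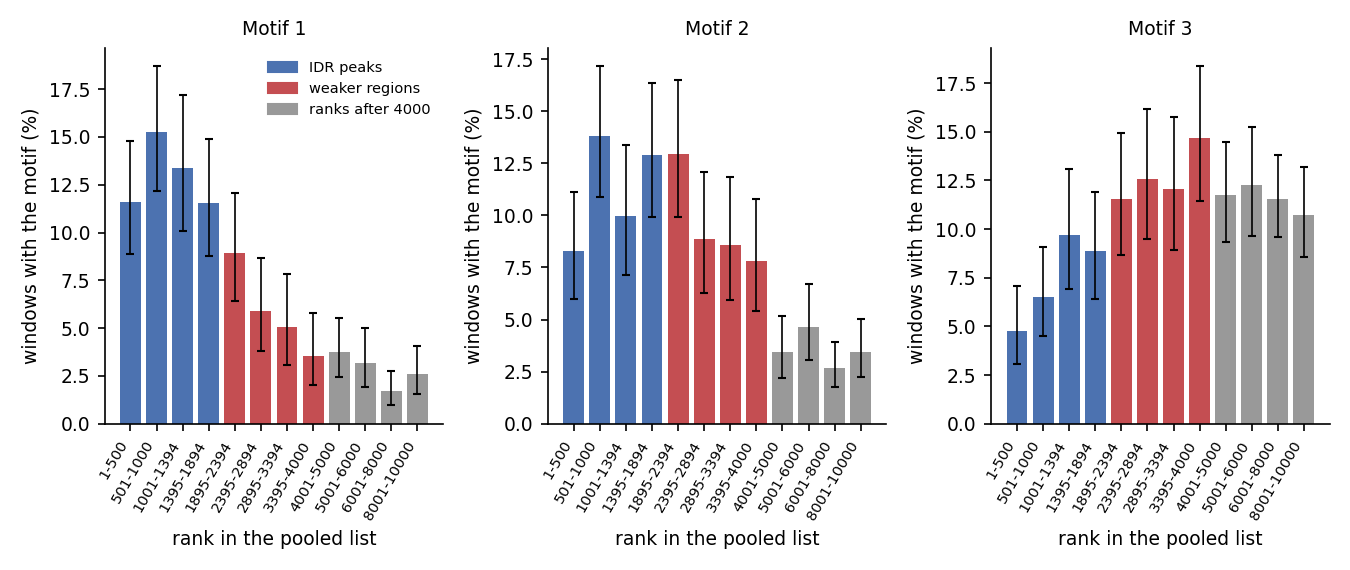
Percent of 201 bp windows holding CTGCGTCT (motif 1), GAGAGAGA (motif 2) and GATAAG (motif 3) by rank in the pooled list, with exact 95% intervals. Motif 1 is at 8.94% and 3.55% in the first and last bin of weaker regions, motif 2 at 12.9% and 7.80%, and motif 3 at 11.5% and 14.7%.

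The highest-scoring weaker regions lay at genes of varied roles. Of the first 20, 11 had a 5′ end within 500 bp and 9 had none. The first was 313 bp upstream of ttr-6 on X (chrX:6597266-6597601), a transthyretin-like gene, with scores of 42.4 in replicate 1 and 37.5 in replicate 2. Others lay 11 bp upstream of ttr-16, another transthyretin-like gene (pooled score 89.8), and 259 bp upstream of tat-4, which encodes a phospholipid-transporting ATPase (89.6). A summit on III scoring 89.5 lay between M01F1.4 and mrpl-35, a gene for a protein of the large mitochondrial ribosomal subunit, at −33 and −171 bp. The remaining protein-coding genes were Y57G11C.33, K07B1.7, csa-1, sph-1 and copg-1, the last for the gamma subunit of the coatomer that coats vesicles of the Golgi. The copg-1 region scored 89.3 in the pooled list, but 18.7 at rank 12782 of replicate 1 and 59.3 at rank 1629 of replicate 2. The K07B1.7 region was even, at 53.1 and 53.1.

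Few genes had both kinds of signal. Of 19973 protein-coding genes, 557 (2.79%) had a weaker region within 500 bp of their 5′ end, at 490 summits. IDR summits lay there in 1216, and 8 genes had both. Of the 18757 protein-coding genes without an IDR summit, 549 (2.93%) had a weaker region. The rule leaves out regions that touch an IDR peak, so a gene's single promoter seldom counts under both, and the share among genes without an IDR summit is the fairer background.

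Lists of protein-coding genes with housekeeping roles had shares above 2.79%, from small counts. The vacuolar ATPase, which acidifies organelles, had a weaker region at 3 of 21 genes (14.3%, exact 95% interval 3.05 to 36.3%), led by vha-16 with a score of 88.2. Nuclear pore and transport genes had one at 4 of 40 (10%, 2.79 to 23.7%), namely ran-4, npp-18, ima-3 and npp-7. Chaperone genes had one at 5 of 65, ubiquitin system genes at 5 of 70, respiratory chain genes at 5 of 71, spliceosome genes at 4 of 62 and mitochondrial ribosomal protein genes at 4 of 70, which are 5.71 to 7.69%. The lower bounds of the 7 intervals, taken over all genes of each list, ran from 1.58 to 3.05%. That of the vacuolar ATPase lay above 2.79%, that of nuclear pore and transport genes at it, and the other 5 below. Among genes without an IDR summit, the vacuolar ATPase had 3 of 16 (18.8%) and nuclear pore and transport genes 4 of 28 (14.3%), against 2.93%. The other 5 lists ran there from 7.14% (mitochondrial ribosomal proteins) to 10.6% (chaperones). Intervals were not computed for the shares without an IDR summit. These are small counts among many lists, and no difference from the background was tested. IDR peaks were at 15.7 to 30% of the genes of these 7 lists, so most of their members with signal were above the threshold.

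Named members of these lists show how far the replicates differed. In the respiratory chain, the ndua-5 region, 330 bp upstream of a gene for a subunit of complex I, scored 85.8, with 61.9 and 46.8 in replicates 1 and 2. The isp-1 region, 319 bp upstream of the gene for the Rieske iron-sulfur protein of complex III, scored 69.9, with 19.3 and 66.8. Among spliceosome genes, rsp-5, for an SR splicing factor, and snr-3, for an Sm protein, shared a summit that scored 86.3, with 47.3 and 45.2. The rsp-5 and snr-3 region ranked at 1877 and 2353 in the replicates, and the isp-1 region at 11734 and 1391. In the ubiquitin system, uev-1, a gene for a variant of ubiquitin-conjugating enzymes, had a region scoring 88.4, with 75.2 and 41.4. The 2 small heat shock genes hsp-16.2 and hsp-16.41 shared a summit 87 and 134 bp upstream of their 5′ ends, with a score of 60.5 and 27.6 and 37.8 in the replicates.

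Ribosomal protein genes had most of their signal above the threshold. Of 81, 43 had an IDR summit and 5 had a weaker region (6.17%, exact 95% interval 2.03 to 13.8%) at 4 summits. These were rps-11 (score 73.1), rpl-27 (72.4), rpl-39 and rps-30 at a shared summit (69.7), and rpl-32 (65.8). They are 5 of the 38 without an IDR summit (13.2%), against 2.93% of all protein-coding genes without one. The interval for the 81 genes includes 2.79%, the share of all protein-coding genes. The rps-11 region scored 25.2 in replicate 1 and 62.6 in replicate 2. The count depended on the list: replicate 2 alone gave 8 genes and replicate 1 alone 15.

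Histone genes had about as many genes with a weaker region as with an IDR summit. A weaker region lay at 9 of 81 histone genes (11.1%, exact 95% interval 5.21 to 20.05%) and an IDR summit at 8 (9.88%). Over all protein-coding genes the shares were 2.79% and 6.09%. The 9 genes shared 6 summits, since core histone genes often stand in divergent pairs. The pair his-3 and his-4, for H2A and H2B, had a score of 81.6, with 36.1 in replicate 1 and 52.1 in replicate 2. The pair his-5 and his-6, for H4 and H3, had 73.3, with 34.8 and 45.1, and the pair his-35 and his-41 had 67.9, with 52.9 and 48.1. The linker histone genes hil-3 and his-24 had 66.8 and 62.2, with 17.0 and 13.1 in replicate 1 and 45.7 and 50.8 in replicate 2. Core histone genes of the same class are nearly identical copies, so reads at them can be shared between copies where the sequence is repeated. How unique the sequence is at these summits was not computed.

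Nuclear hormone receptors, a family of ligand-regulated transcription factors that is very large in C. elegans, had a weaker region at 15 of 273 genes (5.49%, exact 95% interval 3.11 to 8.90%) and an IDR summit at 9. More genes with a weaker region than with an IDR summit were also counted among chemoreceptors (13 against 4), detoxification genes (6 against 3) and intestinal genes (1 against 0). Over all 19973 protein-coding genes it was 557 against 1216 (2.79% and 6.09%). The highest scores were at nhr-97 (89.04), nhr-59 (89), nhr-228 (80.4) and nhr-21 (78.0), and 8 of the 15 genes are on V. At nhr-59, nhr-228 and nhr-21 the summit lay 26 bp downstream, 23 bp upstream and 35 bp downstream of the 5′ end, closer than the median of −166 bp. At nhr-97 it lay 432 bp upstream. Summits at nhr-161, nhr-138, nhr-35, nhr-49, nhr-135 and nhr-34 were also farther from the 5′ end than that median. The lowest was at nhr-34 (59.7), and nhr-49, a regulator of fat metabolism, had 59.8 with 39.4 in replicate 1 and 14.5 in replicate 2. The difference between the weaker and IDR counts was not tested for any list.

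Chemoreceptor, F-box and lectin genes had weaker regions at a smaller share than protein-coding genes as a whole. Chemoreceptor genes, most of which act in sensory neurons, had one at 13 of 1365 (0.952%, exact 95% interval 0.508 to 1.62%), F-box and MATH genes at 2 of 428 and C-type lectin genes at 1 of 240. Cuticle collagens had one at 3 of 173 and detoxification genes at 6 of 215 (2.79%). The lists of tissue genes had 0 of 24 for epidermis (exact upper limit 14.2%), and 1 each for muscle (pat-6, 31 genes), intestine (pho-1, 29) and neurons (ric-19, 31), which are 3.23 to 3.45%. The intervals of chemoreceptor, F-box and lectin genes lay below 2.79%, and those of collagens, detoxification genes and the tissue lists included it.

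**Figure D5:**
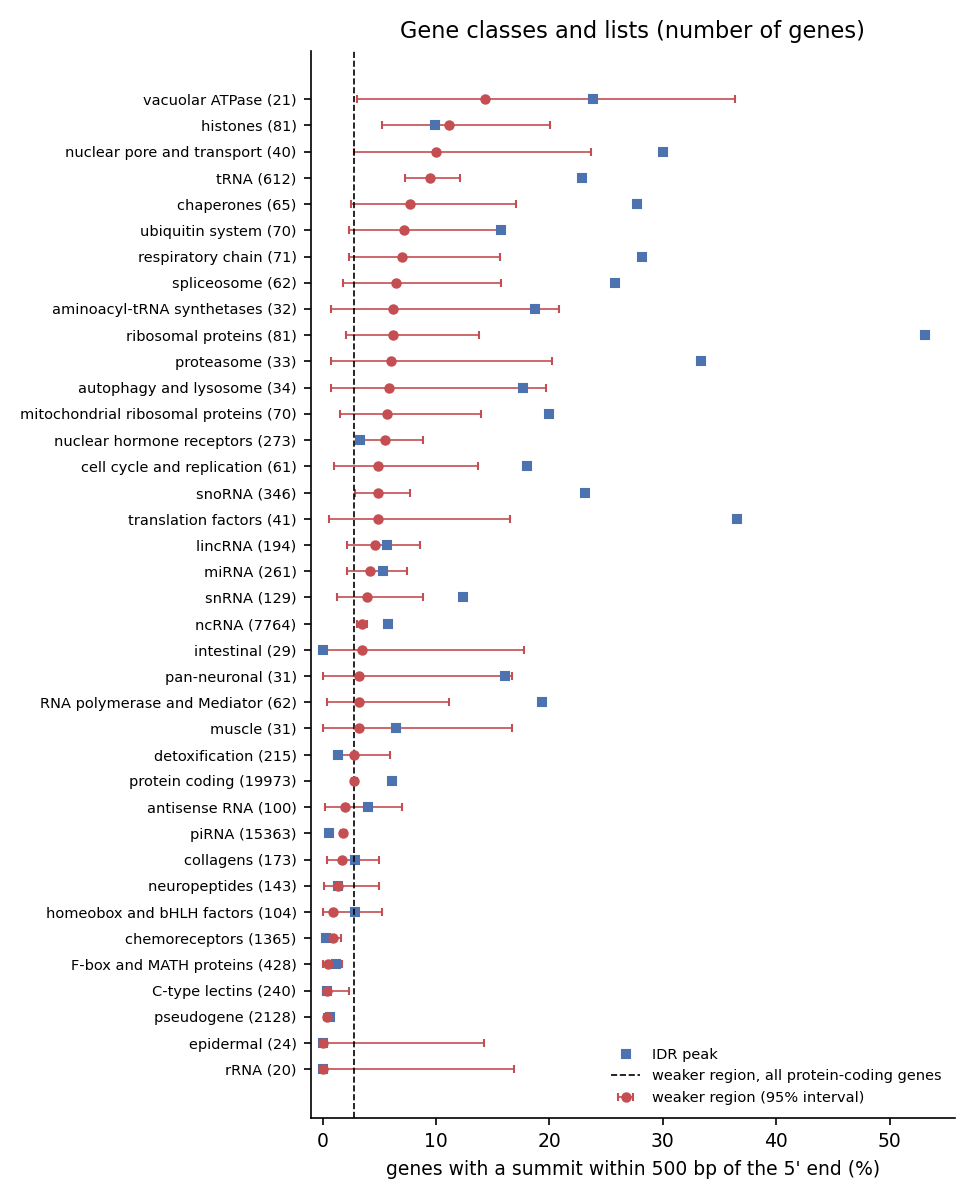
Percent of genes with a weaker region (circles, exact 95% intervals) and with an IDR peak (squares) within 500 bp of the 5′ end, by gene class or list, with the number of genes in brackets; the dashed line is the share of all protein-coding genes with a weaker region, 2.79%. The squares lie far to the right of the circles for ribosomal proteins and translation factors, and to the left of them for nuclear hormone receptors, histones, chemoreceptors, detoxification, intestinal and piRNA genes.

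Genes for small RNAs, most of them transcribed from compact promoters, had weaker regions at several of their kinds. Of tRNA, snoRNA, miRNA and snRNA genes, only tRNA genes had an interval above the share of all genes when all genes of a kind were counted. Among genes without an IDR summit, a weaker region was at 12.3% of 472 tRNA, 6.39% of 266 snoRNA, 4.45% of 247 miRNA and 3.54% of 113 snRNA genes. Intervals were not computed for these shares. Of all 31527 nuclear genes other than piRNA genes, 935 (2.97%) had a weaker region. Among tRNA genes, which RNA polymerase III transcribes from elements inside the gene, it was 58 of 612 (9.48%, exact 95% interval 7.28 to 12.1%) at 46 summits, and 140 had an IDR summit. Summits near tRNA genes were 2.83% of weaker summits, 6.64% of IDR summits and 1.5% of the next 4000 ranks, against 0.533% of nuclear bases. They lay at a median of 11.5 bp downstream of the 5′ end, with 62.1% within 100 bp of it, against −10 bp and 86% for IDR peaks.

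The strongest tRNA regions differed between replicates. C02F12.t1, a tRNA-Met gene on X, had a score of 89.9, with 31.5 and 81.8 in replicates 1 and 2 (ranks 3616 and 1094). K04A8.t2, a tRNA-Ser gene on V, had 89.8, with 41.6 and 55.9, and F53F8.t1, a tRNA-Cys gene on V, 87.2, with 40.3 and 57.3. F28F5.t1, a tRNA-Asn gene on III, had 88.2, with 20.1 and 67.6. Each of these 4 scored higher in replicate 2. By isotype the counts ran from 0 of 27 tRNA-Gln genes to 4 of 13 tRNA-Cys genes, and some of these genes share a summit. X carries 276 of the 612 tRNA genes (45.1%) and 32 of the 58 with a weaker region (55.2%).

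Repeated sequence is a limit at tRNA genes. The windows of the 46 summits had a median of 76.9% unique 31-base stretches, and 17 of them were at least 90% unique, against 96.0% of all weaker regions. Among tRNA genes with at least 90% unique sequence, 2 of 40 had a weaker region (5.00%, exact 95% interval 0.611 to 16.9%), and among the others 56 of 572 (9.79%). Whether reads shared between copies add to the count was not tested. Without replicate 1 the share of summits near tRNA genes was 3.32%, and without replicate 2 it was 2.53%.

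Genes for snoRNAs, the guides for chemical modification of rRNA and other RNAs, followed. Of these, 17 of 346 had a weaker region (4.91%, exact 95% interval 2.89 to 7.75%) and 80 an IDR summit. The highest scores were at Y67A10A.14 (88.8, with 52.3 and 53.7 in the replicates), T04A8.17 (81.7), K11C4.6 (81.2) and K02C4.7 (79.7), at 36 to 91 bp upstream, and T04A8.17, K11C4.6 and K02C4.7 lie in introns of other genes. Among miRNA genes it was 11 of 261 (4.21%, 2.12 to 7.42%), led by cel-mir-4920, at the sph-1 summit, cel-mir-5551, at the nhr-97 summit, cel-mir-79 (87.9) and cel-mir-238 (84.3). Among snRNA genes it was 5 of 129 (3.88%, 1.27 to 8.81%), and 4 of these were the spliced leader genes sls-2.7 (85.0), sls-2.18 (74.7), sls-2.16 (62.5) and sls-2.9 (61.6), the last named after its value was seen. The share among all spliced leader genes was not computed. Counted over all genes of each kind, the intervals of snoRNA, miRNA and snRNA genes include 2.97%, the share of all genes other than piRNA genes. Pseudogenes had one at 8 of 2128 (0.376%) and rRNA genes at 0 of 20.

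The starts of the family's own genes were searched for summits of weaker regions and IDR peaks only. At lir-3, lin-26, lir-1 and lir-2, all on II, and at unc-119 on III, the 500 bp on each side of the 5′ end held no summit of a weaker region or an IDR peak. Inside introns of unc-119 there were 2 weaker regions, with scores of 65.4 and 65.3, and an IDR peak with 100.1. In replicates 1 and 2 the weaker ones scored 30.7 and 29.8, and 19.8 and 26.6. The strain has the unc-119(ed3) allele and a transgene, and the part of either in this signal was not tested.

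The weaker regions were spread over all chromosomes. X held 339 of them (20.8%, exact 95% interval 18.9 to 22.9%) and 17.7% of nuclear bases, against 18% of IDR peaks and 20.2% of the next 4000 ranks. IV held 18.1% and V 16.9%, against 14.7% of the IDR peaks on each, and III held 14.4% against 18%. In each of these the share of weaker regions lay between those of the IDR peaks and the next 4000 ranks, except on X. No difference between chromosomes was tested.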

How the data were processed

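The files are peak lists of 2 biological replicates and of both pooled, each of 30000 regions. Per the descriptions deposited beside the files, the authors made each list from the replicates' alignments with a further input file, and the IDR set from those 3 lists. For the caller, aligner and IDR threshold, nothing is stated by any source used here, and a control experiment named in the labels was not analysed here. The deposited score of a region is the authors' signal value, and the deposited −log10 q-value is theirs too. Lists on ce11 were used with the Ensembl release 115 annotation (WBcel235), with tRNA names and gene products from RefSeq; ce10 lists gave counts only. Values not matched to a sample or the pooled group numbered 0.

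Regions were assigned to genes by summits within 500 bp of annotated 5′ ends, and 11 sequences were searched on both strands. Shares have exact Clopper-Pearson 95% intervals. The members, gene lists and sequences were chosen with earlier results of these data known. Genes were named at the 20 highest-scoring members, by up to 4 per small RNA class and per list with at least 3 genes and 2 times the background share, at the edges of the rank range, and for the lir-3 family; further ones in counts were named after their values were seen. Of the lists, those for translation factors (2 of 41 genes), the proteasome (2 of 33), RNA polymerase and Mediator (2 of 62), the cell cycle (3 of 61), autophagy (2 of 34), aminoacyl-tRNA synthetases (2 of 32), neuropeptides (2 of 143) and homeobox and bHLH factors (1 of 104) are described only here. Python 3.11.15 with numpy 2.4.6, scipy 1.17.1, pandas 2.3.3 and matplotlib 3.10.9 was used. The assignment of summits to genes and the search for CTGCGTCT were checked on planted cases, and the rule that selected the regions was not. Alternatives are given in the closing section, and those for the motif shares without a replicate were chosen after seeing the data.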

Additional observations from a re-analysis of the deposited data

How the results depend on the processing

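Of 110 values recomputed under alternatives, 76 stayed within the exact 95% interval or 1.5 times the count. Asking for 50% reciprocal overlap with both replicates' regions gave the same 1628 members and unchanged values. Those values are among the 76 and say nothing about stability. With ranks 1 to 3000 there were 913 members, with 45.1% of summits near 5′ ends, 8.11% in coding exons, 3.94% near tRNA genes and 342 protein-coding genes. With ranks 1 to 5000 coding exons held 13.3%. A window of 250 bp gave 29.7% near 5′ ends, 339 protein-coding genes and 2 ribosomal protein genes, and 1000 bp gave 59.8%, 874 and 9. With the nearest 5′ end only, 2.03% of summits were at tRNA genes and 3 ribosomal protein genes had a region. Without replicate 1 or 2, with the other replicate's own list ranked in place of the pooled one, the share near 5′ ends ran from 44.1 to 44.8% and the ribosomal protein genes from 8 to 15. Windows of 50 bp on each side lowered the motif shares, as fewer bases are searched, to 3.13% for CTGCGTCT, 5.59% for GAGAGAGA and 7.19% for GATAAG. The ce10 lists gave 1656 members with 21.2% on X. Except for windows and the nearest 5′ end, the cause of a shift was not tested. No paired analysis was possible because there is 1 group. Depth is unknown, so a missing region does not show that LIR-3 is absent, and the lists hold no region below their own last score.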

Other observations

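Runs of T were rare in the weaker regions. TTTTTTTT, read on both strands, was in 185 of 1628 windows (11.4%, exact 95% interval 9.86 to 13.0%), against 21.5% of the flanks, 26.3% of windows upstream of protein-coding genes and 22.8% of genome windows. IDR peaks had 11.1% and the next 4000 ranks 11.5%, so this share was nearly flat over the score where those of CTGCGTCT and GAGAGAGA were not. TTTTCAG, which resembles the splice acceptor of C. elegans introns, was in 10.3% of weaker regions and 19% of their flanks. TATAAA was in 22.1% of weaker regions, 16.5% of IDR peaks and 23.6% of the flanks. Its share of weaker regions was 18.6% without replicate 1 and 19.2% without replicate 2. Without replicate 2, TTTTTTTT was in 15.1% and TTTTCAG in 12.6%, both above their main intervals. The tRNA gene element GTTCGANNC was in 2.46% of weaker regions, 4.69% of those within 500 bp of a 5′ end and 0.846% of those farther away. GC content was 37.4% in the weaker regions and 34.7% in the flanks, and its part in these shares was not tested.

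The regions that both replicates placed in their first 4000 ranks differed from those that 1 or both placed beyond rank 15000. A 5′ end lay within 500 bp in 55.1% of the 345 former (exact 95% interval 49.7 to 60.4%) and 32.5% of the 329 latter (27.5 to 37.9%). Coding exons held 3.77% and 16.7%, CTGCGTCT was in 9.86% and 3.34%, and CACGTG in 9.57% and 2.13%. GAGAGAGA was in 11.6% and 9.12%, with intervals that overlap. The former have the higher pooled scores, with a median of 78.4 against 64.6, so replicate ranks and pooled score cannot be told apart here. The 450 regions of the same ranks that lacked a region in 1 or both replicates, and so were not members, had 44.0% near 5′ ends and 10.7% in coding exons, near the values of the members.

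Genes for piRNAs, small RNAs of the germline that stand in dense clusters on IV, were left out of the counts near 5′ ends. A weaker summit lay within 500 bp of 281 of 15363 (1.83%), mostly on IV. Those summits were 6.39% of weaker summits, 2.38% of IDR summits and 6.69% of the next 4000 ranks, against 4.83% of nuclear bases.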
